A study of Mus musculus with 5 samples.

Results

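RAP1 belongs to shelterin, a group of proteins that sits on telomeres and protects them. It is held on the telomeric TTAGGG repeats through TRF2, another shelterin subunit, and has little affinity for DNA of its own. RAP1 has also been described at sites away from telomeres, within chromosomes, in mammalian cells. The peaks described here are the autosomal RAP1 peaks that lie in the most thinly occupied parts of the genome. Each chromosome was cut into bins of 1 Mb, each peak was assigned to the bin that holds its midpoint, and peaks on chromosomes 1 to 19 were taken where the bin holds 1 to 3 peaks. This gave 597 peaks of 30398 in the whole list, or 1.99% of the 29940 autosomal peaks.

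The study immunoprecipitated RAP1 from mouse embryonic fibroblasts of mixed background that carry the SV40 large T antigen, which inactivates the tumour suppressors p53 and RB, and that were grown in medium with puromycin. Of its 5 libraries, 2 come from wild-type lines, 2 from lines in which Rap1 was deleted, which serve as the negative control, and 1 is an input without antibody. All of these lines are immortalised, so none stands for primary fibroblasts. The deposited list pools the reads into a positive set, read here as wild-type, and a negative set, read here as Rap1-deleted, so no value has a spread between replicates and the depth of each library is unknown.

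These peaks were chosen by the number of peaks in a bin, and the list itself came from setting the positive against the negative reads. All values given for them are therefore descriptions, and no difference from other peaks was tested. Intervals are exact 95% intervals for counting error only. Coordinates are those of the deposited list, in the mm9 build. No genome sequence or gene annotation of mm9 was used here, so peaks are described by position, with no gene and no sequence.

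Sparse bins are a minority of the autosomal genome but are not rare. Between the first and last occupied bin of each autosome there are 2420 bins, with a median of 11 peaks (interquartile range 6 to 17, highest 108). Of these, 272 bins (11.2%) are sparse, with 1 to 3 peaks, and 45 are empty. Among the sparse bins 53 hold 1 peak, 113 hold 2 and 106 hold 3. Just outside the limit, 118 bins hold 4 peaks. The distribution of bins runs on smoothly across the limit of 3, so that the sparse bins are the low tail of the bins and not a class set apart by a gap.

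**Figure D1:**
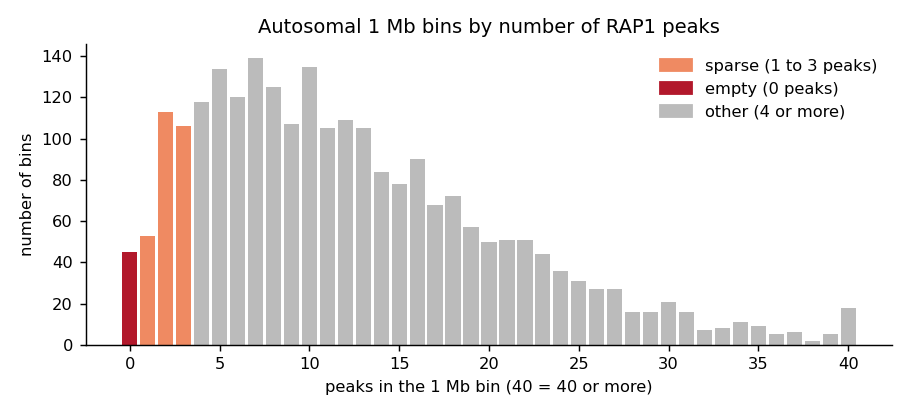
Number of autosomal 1 Mb bins (y axis) against the number of RAP1 peaks in the bin (x axis, with 40 standing for 40 or more). Orange bars are the 272 sparse bins, the dark red bar the 45 empty bins and grey bars all others; no gap separates the sparse bins from bins with 4 or more peaks.

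Chromosome 7 holds the most sparse and empty bins. On chromosome 7, 35 of 150 bins are sparse and 19 are empty, together 36.0% of the chromosome, against a median of 11.5% over the 19 autosomes. Chromosome 7 alone has 42.2% of all empty autosomal bins, and with chromosome 12, which has 7, it accounts for 26 of the 45. Chromosome 14 follows with 19 sparse and 4 empty bins of 118 (19.5%), and chromosome 12 with 15 sparse and 7 empty bins of 119 (18.5%). At the other end, chromosome 10 has 2 sparse bins of 127 and none without a peak (1.57%), chromosome 3 has 6 of 157 (3.82%) and chromosome 19 has 3 of 59 (5.08%). Empty bins occur on 10 of the 19 autosomes.

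Counted by peaks, chromosome 1 gives 75 of the 597, chromosome 7 gives 64, chromosome 4 gives 54 and chromosome 14 gives 44. They make up 6.20% of the peaks of chromosome 7 and 0.260% of those of chromosome 10. On chromosome 14 the first listed peak lies in the bin that starts at 8 Mb, whereas on the other 18 autosomes the first occupied bin starts at 3 Mb. Bins before the first listed peak were not counted as empty.

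**Figure D2:**
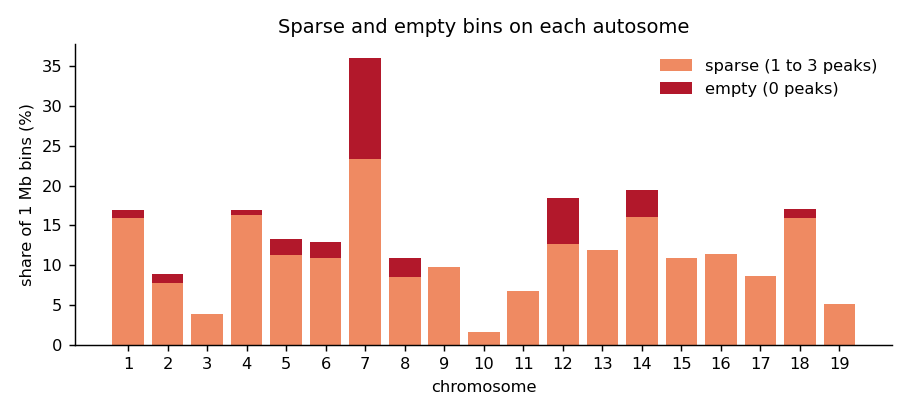
Share of 1 Mb bins (y axis, percent) that are sparse (orange) or empty (dark red, stacked on top) on each autosome (x axis). Chromosome 7 reaches 36.0%, and chromosome 10 has 1.57%.

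Sparse and empty bins lie next to each other. Of the bins adjacent to a sparse bin, 31.7% are themselves sparse or empty, and of those adjacent to an empty bin 64.4% are, against 9.64% of the bins adjacent to a bin with 4 or more peaks. The median bin beside an empty one holds 2 peaks and the median bin beside a sparse one holds 5, against 12 beside a bin with 4 or more. Runs of at least 2 consecutive sparse or empty bins number 61 on 17 autosomes, and hold 138 sparse and 38 empty bins. Most runs are short, with 36 of 2 bins, 13 of 3, 7 of 4, 2 of 6, 2 of 7 and 1 of 11. The other 134 sparse and 7 empty bins stand alone between bins of 4 or more peaks or at the end of the counted bins. The 597 peaks divide about evenly, with 304 (50.9%) in runs and 293 in lone bins.

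The longest run lies on chromosome 7 from 39 to 50 Mb. It spans 11 bins, of which 6 are empty and 5 are sparse, and holds 7 peaks, with 6 peaks in the bin before it and 7 in the bin after it. Its empty bins form the longest empty stretch of the autosomes, from 40 to 46 Mb. The stretch without a peak runs for 7.78 Mb, from the peak that ends at 39046988 to the one that starts at 46828452. The 7 peaks hold 20 to 33 positive reads each, with a median of 25, and the best of them ranks 6784 in the list. The peak at the near edge of the gap, from 39046959 to 39046988, has 20 positive reads against 4 negative ones in its strand windows, 1.51 after scaling (0.504 to 6.06).

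Chromosome 7 has 3 more of the 10 longest runs. From 7 to 13 Mb, 6 bins hold 7 peaks, with 2 of the bins empty. Between 21 and 25 Mb all 4 bins are empty, while the bins on either side hold 13 and 15 peaks, so that this gap ends abruptly at both sides. From 67 to 71 Mb, 4 sparse bins hold 9 peaks. Of the 10 largest distances between neighbouring autosomal peaks, 5 are on chromosome 7.

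The run on chromosome 12 from 18 to 25 Mb is an island between gaps. Its 7 bins hold 3 peaks, all in the bin in the middle, with 3 empty bins before and 3 after, and the flanking bins hold 10 and 12 peaks. The peak-free distances on its sides are 3.45 Mb, up to 21158683, and 3.95 Mb, from 21304390. The 3 peaks hold 24 to 28 positive reads.

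Chromosome 14 has 2 of the 10 longest runs, and most of their bins hold peaks. From 38 to 45 Mb, 7 bins hold 11 peaks with 2 bins empty, and from 81 to 87 Mb, 6 bins hold 12 peaks with 1 bin empty. None of these 23 peaks has a negative read in the strand windows, where 7.87% of the 597 and 18.8% of all listed peaks have one. Their positive reads run from 20 to 47. The remaining runs among the 10 longest are on chromosome 2 from 175 to 179 Mb (3 peaks, 2 bins empty), on chromosome 18 from 16 to 20 Mb (6 peaks, 1 bin empty) and on chromosome 1 from 103 to 107 Mb (9 peaks, none empty). Runs of 4 bins with 9 peaks also lie on chromosome 12 from 62 to 66 Mb and on chromosome 15 from 17 to 21 Mb, tied with those on chromosomes 1 and 7. Together the 10 longest runs cover 57 bins, 24 of them empty, and hold 67 peaks, of which 3 have negative strand reads. These counts are too small to set the runs apart from the other peaks in sparse bins.

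**Figure D3:**
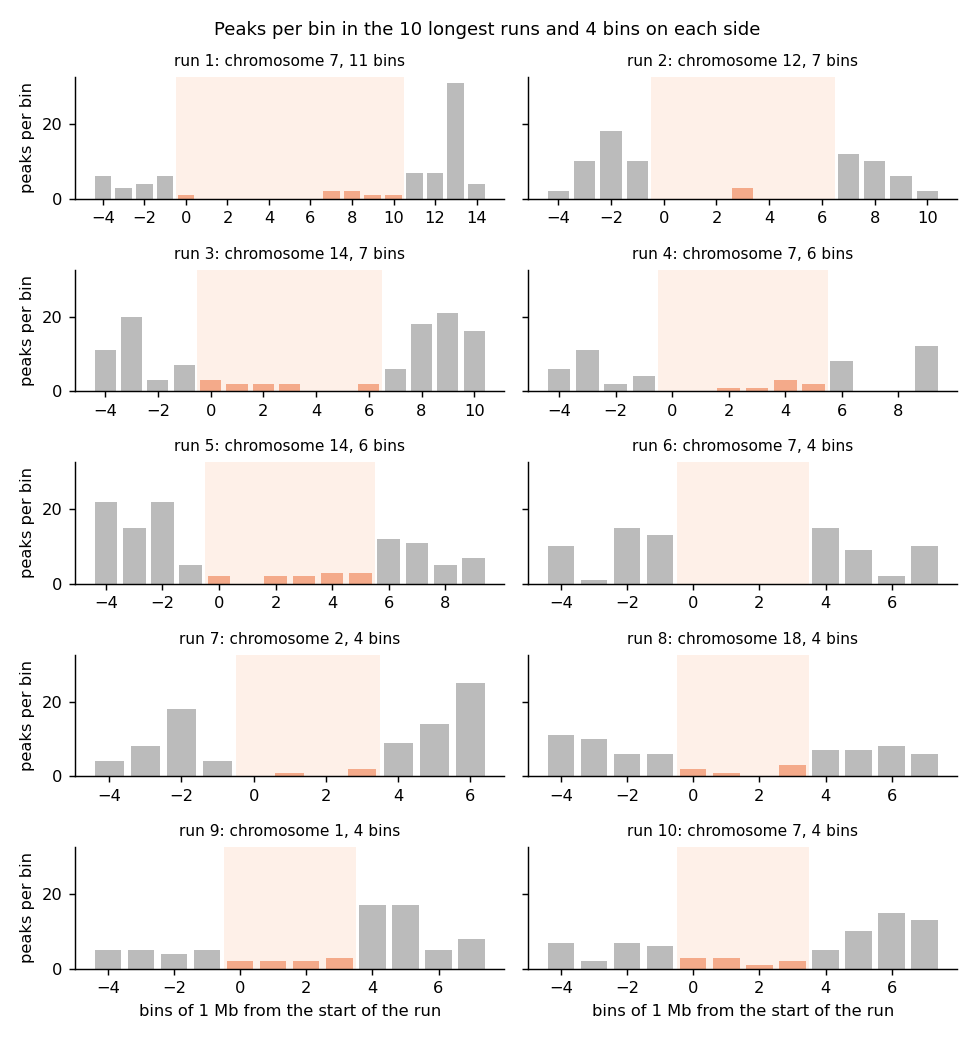
Peaks per 1 Mb bin (y axis) in the 10 longest runs of sparse or empty bins and in 4 bins on each side (x axis, bins from the start of the run). Orange bars on the shaded ground are the run and grey bars the bins around it; the longest run spans 11 bins with 7 peaks, and run 6 has no peak at all between bins of 13 and 15 peaks.

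Among the counted bins, few of the sparse and empty ones lie at the distal chromosome ends, away from the centromere. Among the last 10 counted bins of each autosome 15 of 190 (7.89%) are sparse or empty, among the first 10 it is 27 of 190 (14.2%), and in between it is 275 of 2040 (13.5%). In 1 autosome the last counted bin is sparse, and in 1 the first is. By definition neither can be empty, and bins past the last listed peak were not counted, which in part fixes the low distal share.

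Peaks in sparse bins stood far apart from other peaks, which the choice of bins fixes in part. Their median distance to the nearest peak was 157 kb (interquartile range 68.0 to 324 kb), against 17.5 kb (5.96 to 42.2 kb) for other autosomal peaks. Of the 597, 253 (42.4%) lie more than 200 kb from any peak, against 448 of 29343 others (1.53%). These 253 are 36.1% of the 701 autosomal peaks that are so isolated. The bin borders matter for some of them: 164 of the 597 (27.5%) have more than 3 other peaks within 500 kb, up to 17, because a denser bin begins close by. At the other extreme, 42 have no other peak within 500 kb.

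Close neighbours were few. Within 10 kb of another peak lie 27 of the 597 (4.52%), against 35.5% of other autosomal peaks, and within 1 kb lie 2 (0.335%), against 6.10%. Those 2 form 1 pair on chromosome 18. The peak from 40202213 to 40202242 is 30 bp long with 25 positive reads, and the one from 40202589 to 40202945 is 357 bp long with 26. Neither has a negative read. The next closest is on chromosome 5 from 129463202 to 129463255, with 29 positive reads, 1.41 kb from its neighbour.

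Peaks in sparse bins held slightly fewer positive reads, and few of them were read-rich. Each has 15 to 67 positive reads, with a median of 26 (interquartile range 23 to 30), against a median of 28 (24 to 34, highest 329) for other autosomal peaks. The mean was 27.3 reads (exact Poisson interval 26.9 to 27.7) in sparse bins. In bins of 4 to 7 peaks it was 28.2, in bins of 8 to 15 it was 29.5 and in bins of 16 or more it was 31.2. The mean in sparse bins was below that of the other peaks on all 19 autosomes. On chromosome 10 it was 30.4 against 30.6, from 5 peaks in sparse bins. The medians were equal on chromosomes 5, 10 and 13. The upper tail differed more than the centre. At 35 or more positive reads stand 71 peaks of sparse bins (11.9%, Clopper-Pearson 9.41 to 14.8), against 6928 other autosomal peaks (23.6%, 23.1 to 24.1). With 50 or more reads there are 6 (1.01%, 0.370 to 2.17), against 1265 (4.31%, 4.08 to 4.55). In bins of 4 peaks these shares were 10.8% and 1.27%, and in bins of 4 to 7 they were 15.5% and 1.69%. The short upper tail is thus not particular to bins of 1 to 3 peaks.

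The values just inside and just outside the limit were close. Peaks in bins of 3 had a median of 26 positive reads and those in bins of 4 also had 26, and 27 of 318 (8.49%) against 30 of 472 (6.36%) had negative strand reads. Peaks in bins of 1 had a median of 27 reads and those in bins of 2 had 25.

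The most read-rich of them were modest beside the head of the list. The best-ranked, on chromosome 1 from 19976446 to 19976474, is the 68th of the whole list. It is 29 bp long, with 55 reads from wild-type cells and none from Rap1-deleted cells. Its whole-peak positive reads over a floor of 3 negative reads, scaled to 9.96, give a nominal bound of 5.52-fold. Such bounds rest on the assumed floor and are not a measured limit on the difference. Of its reads 37 are forward and 18 reverse, and their modes lie 1 bp apart, against a median of 50 bp in sparse bins. The next, on chromosome 16 from 5254482 to 5254511 and ranked 178, is 30 bp long with 63 positive reads. On its strands 55 positive reads stand against 8 negative ones, which gives 2.07 (0.980 to 5.03). The third, ranked 206, lies on chromosome 7 from 115118614 to 115118693, alone in its bin and 857 kb from the nearest peak. It has 49 positive and no negative reads (nominal bound 4.92-fold). On chromosome 7 from 34954124 to 34954168, the peak ranked 369 has 52 positive and 6 negative strand reads (2.61-fold, 1.12 to 7.43).

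The other 6 of the 10 best-ranked have no negative read in any column, and their bounds run from 3.91-fold to 4.42-fold. A pair of them share a bin on chromosome 14, from 114059838 to 114059898 with 43 positive reads and from 114394239 to 114394319 with 42. They are joined by peaks on chromosome 9 from 16901689 to 16901754 (44 positive reads), chromosome 2 from 89966319 to 89966397, chromosome 1 from 104270309 to 104270366 and chromosome 12 from 118930437 to 118930497 (39 positive reads each). The chromosome 1 peak lies inside the run from 103 to 107 Mb. By number of reads, the highest are broad peaks that rank lower. On chromosome 5 from 79692432 to 79692767, 67 positive reads stand over 336 bp with 15 negative strand reads (ratio 1.34, 0.760 to 2.54). On chromosome 9 from 46090774 to 46090996, 66 positive reads stand over 223 bp, and on the strands 70 positive reads stand against 8 negative ones (2.63, 1.27 to 6.34). This last peak has 16 other peaks within 500 kb although its own bin holds 3.

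Few peaks in sparse bins had reads from Rap1-deleted cells. In the strand windows, which may extend past the peak edges, 47 of the 597 have at least 1 negative read, 7.87% (5.84 to 10.3), where the share over all 30398 listed peaks is 18.8%. Among other autosomal peaks the share was 19.1% (18.6 to 19.5). It was 9.98% (8.90 to 11.1) in bins of 4 to 7 peaks, 14.8% (14.1 to 15.5) in bins of 8 to 15 and 23.0% (22.4 to 23.6) in bins of 16 or more. Over these pooled classes the share was lower where bins hold fewer peaks, but among the thinnest bins it followed no order, with 9.43% (3.13 to 20.7) in bins of 1, 6.64% (3.76 to 10.7) in bins of 2, 8.49% (5.67 to 12.1) in bins of 3 and 6.36% (4.33 to 8.95) in bins of 4. The low share is thus not particular to bins of 1 to 3 peaks. The whole-peak column has no negative read for any of the 597, but it is nearly empty throughout, with 199 negative reads over all 30398 peaks, and says nothing about these.

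**Figure D4:**
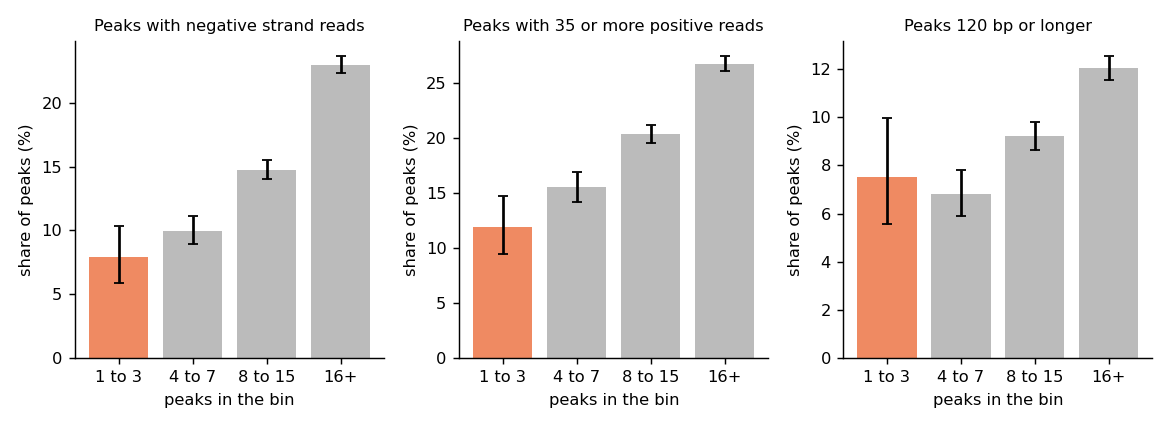
Share of autosomal peaks (y axes, percent) with at least 1 negative strand read, with 35 or more positive reads, and of 120 bp or longer, by the number of peaks in the bin (x axis). Bars are shares with exact 95% Clopper-Pearson intervals, orange for sparse bins; the first share is 7.87% in sparse bins and 23.0% in bins of 16 or more peaks.

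The mean number of positive reads differed between the bins in the same order, and the share with negative reads was therefore also read among peaks with like numbers of positive reads. At 12 to 24 positive reads it was 5.69% (3.15 to 9.36) in sparse bins and 14.4% (13.7 to 15.2) in other peaks. At 25 to 34 reads it was 8.21% (5.28 to 12.1) against 17.2% (16.5 to 17.8), and at 35 or more it was 14.1% (6.97 to 24.4) against 28.7% (27.6 to 29.8). Peaks of 29 to 31 bp gave 14.2% (8.32 to 22.0) against 28.9% (27.7 to 30.1), and those of 120 bp or longer gave 17.8% (8.0 to 32.05) against 24.04% (22.55 to 25.6). The share was lower in sparse bins than in all other peaks in each of these classes, though for the longest peaks the intervals overlap. Bins of 4 to 7 peaks were closer, with 7.23%, 10.2% and 15.9% in the same order of positive reads. Their peaks of 29 to 31 bp gave 14.5%. Those of 120 bp or longer gave 13.0%, below the share in sparse bins.

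By chromosome, the share with negative reads was lower in sparse bins than in other peaks on 18 of 19 autosomes. The exception is chromosome 10, where 1 of 5 peaks in sparse bins has such reads. On most chromosomes the number of peaks is small and the intervals are wide. Chromosome 1 gave 4.0% (0.83 to 11.2) against 15.4% and chromosome 14 gave 4.55% (0.555 to 15.5) against 14.4%. Chromosome 4, with 8 of 54 (14.8%, 6.62 to 27.1) against 17.4%, lay closer to its other peaks. Chromosome 7 gave 8 of 64 (12.5%, 5.55 to 23.2) against 19.4%, and these 2 chromosomes hold 16 of the 47. Chromosome 12 lay about as near to its other peaks as chromosome 7, with 6.06% (0.743 to 20.2) against 12.9%. Peaks in runs and in lone bins had similar shares, 22 of 304 (7.24%) and 25 of 293 (8.53%).

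**Figure D5:**
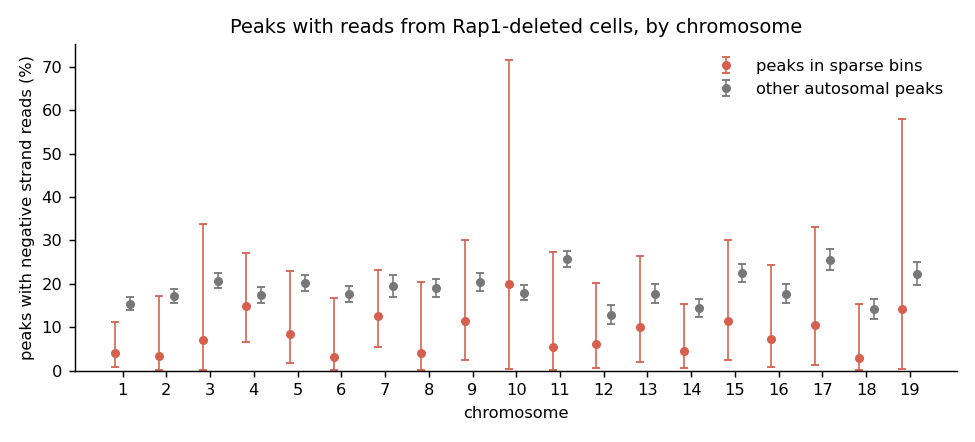
Share of peaks with at least 1 negative strand read (y axis, percent) on each autosome (x axis), for peaks in sparse bins (red) and other autosomal peaks (grey), with exact 95% Clopper-Pearson intervals. The red point lies below the grey one on every autosome but chromosome 10, and its interval is wide where a chromosome has few such peaks.

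Summed over the strand windows, peaks in sparse bins have 16271 positive reads against 332 negative ones, 14.8 after scaling (13.2 to 16.5), against 5.65 (5.59 to 5.70) for other autosomal peaks. The ratio was 10.9 (10.5 to 11.4) in bins of 4 to 7 peaks and 4.73 (4.68 to 4.79) in bins of 16 or more. In single steps it was 11.8 (8.56 to 16.8) in bins of 1, 16.7 (13.8 to 20.4) in bins of 2, 14.2 (12.3 to 16.5) in bins of 3 and 16.7 (14.7 to 19.1) in bins of 4, so that bins just outside the limit reached as high a ratio. These intervals treat each read as a separate draw, but the 332 negative reads all lie in 47 peaks. In bins of 1, 5 peaks hold all 38 negative reads. The intervals leave out the spread between peaks and are too narrow for comparing the groups. Among the peaks that have negative reads at all, the values lay closer together: the median ratio was 1.69 in sparse bins and 1.33 in other autosomal peaks, and the median number of negative reads was 6 and 7. Of the 47 in sparse bins, 14 (29.8%, 17.3 to 44.9) have a ratio of 1 or less, where 35.1% of all listed peaks with negative strand reads do. The interval lies wholly above 1 for 11 of the 47, wholly under 1 for 3 and spans 1 for 33. This count was not made for other peaks, so it does not show whether these differ from the list.

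Among the 47, the lowest ratio, 0.351 (0.178 to 0.699), belongs to the peak on chromosome 1 from 3584478 to 3584541, with 18 negative strand reads. A log2 fold under 0 on a strand is rare in the authors' deposited list, with 135 of 30398 peaks (0.444%). Among the 597, 1 peak has such a fold (0.168%, 0.00424 to 0.930), and this interval covers the share of the whole list. This peak, on chromosome 17 from 94006530 to 94006558, has -1.14 on the forward and -0.88 on the reverse strand, and 24 positive against 15 negative strand reads (0.482, 0.243 to 0.988). The third peak whose interval lies under 1 is on chromosome 9 from 90096179 to 90096319, with 32 positive against 19 negative strand reads (0.507, 0.279 to 0.947). Its deposited log2 folds point the other way, at 4.32 on the forward and 3.70 on the reverse strand. These 3 peaks were picked out after their values were seen. Of the 47, 14 have a ratio of 1 or less, but only 1 of the 597 peaks has a deposited fold under 0. The ratios and the deposited folds thus differ in direction at some peaks. They also differ in size where both point up. The peak ranked 178 has 38 positive and 5 negative forward reads, with a deposited forward log2 fold of 5.25. The peak ranked 2463 has 40 positive and 15 negative reverse reads, with a deposited reverse log2 fold of 4.52. Their ratios over both strands are 2.07 and 1.34. For the 550 peaks without any negative read, the positive reads over the scaled floor of 3 negative reads give a median nominal bound of 2.51-fold. That bound follows from the positive reads alone.

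In length the peaks in sparse bins were close to the others at the median. Their median length was 52 bp (interquartile range 36 to 68, full range 29 to 370 bp), against 56 bp (38 to 77). Of them 113 (18.9%, 15.9 to 22.3) are 29 to 31 bp long, against 17.7% (17.3 to 18.1). That difference of 1.24 percentage points turned to -1.58 when only peaks with a false discovery rate at or under 0.01 were counted, and was 5.64 with a limit of 1 to 2 peaks per bin. Another 45 (7.54%, 5.55 to 9.96) are 120 bp or longer, against 10.6% (10.3 to 10.98). The mode of the reverse reads followed that of the forward reads, the order that fragments read from both ends give, in 568 of 597 (95.1%, 93.1 to 96.7), against 92.9% (92.6 to 93.2), and the median distance between the modes was 50 bp against 52 bp. The distance between the modes is not a trait separate from length. In most of the peaks named above it equals the length, as at 80 bp for the peak ranked 206. Forward reads made up 49.93% of the positive strand reads in sparse bins and 49.96% in other peaks.

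The deposited ranks and false discovery rates placed them somewhat lower in the list. Their median rank was 17808, against 15135 for other autosomal peaks, and 7 of 597 stand among the first 1000 (1.17%, against 3.34%). The authors' deposited false discovery rate is at or under 0.01 for 287 of 597 (48.1%, 44.0 to 52.2), where it is for 55.9% of the whole list. Among other autosomal peaks it is for 56.1%. When the others were weighted to the read and length classes of the peaks in sparse bins, an alternative added after the data were seen, their share was 46.5%, so that the direction turned.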

How the data were processed

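The values came from 1 deposited list of RAP1 ChIP-seq peaks. Per the file headers, it gives for every peak an unnormalised read count of either set, over the peak and in strand windows, log2 folds, a false discovery rate (q-value) and the score Rmode-Fmode, the distance between strand modes. A deposited score named Delta and the highest-window columns were not used. The positive and negative sets were read as wild-type and Rap1-deleted from the design text. Neither the aligner nor the peak caller, nor any use of the input, is given in the sources used here. Coordinates follow mm9, named in the submitters' processing notes.

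Negative reads were scaled by 3.32, solved from the deposited log2 folds under 0 as (positive + 1) over (scaled negative + 1). Of 180 such entries, 166 returned it within 0.001. Folds above 0 were not used to solve or check the scale. The formula does not give the deposited fold at some peaks with negative reads, so the strand ratios are not the deposited contrast. Shares have exact Clopper-Pearson intervals and ratios exact conditional binomial 95% intervals. Depth per library is unknown, and PCR copies are not separate molecules, so intervals cover counting error only. Peaks were also set beside autosomal peaks in bins of 4 to 7, 8 to 15 and 16 or more peaks. Binning, runs and ratio intervals were checked on simulated data. No test was made: the planned comparison of wild-type and Rap1-deleted libraries needs values per library. The rule for named regions was the 10 longest runs, the longest empty stretch, the 10 best-ranked peaks, the 5 with most positive reads and the 3 nearest to another peak. The peaks, classes and rules were chosen with earlier results of these data known. Python 3.11.15, pandas 2.3.3, NumPy 2.4.6, SciPy 1.17.1 and matplotlib 3.10.9 were used. Alternatives are given in the closing section.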

Additional observations from a re-analysis of the deposited data

How the results depend on the processing

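No paired analysis was possible because the deposited list pools the libraries, and no replicate could be left out. Of 79 values recomputed under 11 alternatives, 60 moved by less than their limit, which was 1.5 times for counts and the 95% interval for values, 17 moved by more and 2 turned direction. Only peaks with a false discovery rate at or under 0.01, recounted, gave 1218 peaks in 602 sparse bins with 135 empty bins, a strand ratio of 12.5, and a share of 29 to 31 bp peaks that was below that of other peaks by 1.58 points (-1.58) in place of above by 1.24. Bins of 2 Mb with 1 to 6 peaks gave 388 peaks in 87 sparse bins, 11 empty bins and a longest run of 5 bins. Without peaks that have negative reads, the mean positive reads differed by -2.52 from other peaks, in place of -3.06. The other alternatives named here were added after the data were seen. A limit of 1 to 2 peaks gave 279 peaks in 166 bins, a difference of -3.52 reads and of 5.64 points in 29 to 31 bp peaks, and a limit of 1 to 5 gave 1739 peaks in 524 bins. Without chromosome 7 there were 26 empty bins and the longest run had 7 bins. Weighting the others to the same read and length classes turned the difference at a false discovery rate of 0.01 to 1.54 points, from -8.04. The causes were not tested. The difference in the share with negative strand reads, -11.2 points, lay between -13.1 and -9.49 under every alternative that could give it. Leaving out peaks with negative reads fixes that share at 0, and keeping only a false discovery rate at or under 0.01 fixes the other, so neither was recomputed there, and the whole-peak columns gave no ratio because they hold no negative read for these peaks.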
